A study of Mus musculus with 12 samples.

Results

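Ambp, Chst1, Agmo, Dntt, Cldn11 and Prima1 were 6 genes whose RNA was much higher in the mouse macrophage line RAW264.7 when NaCl was added to the medium. They were 6 of 13846 genes tested, and were taken by symbol: every probe of the array that carries the name was used, 1 probe for each gene. They had been chosen on their levels in these same arrays, chiefly on the comparison of HS with NS, so their rise there describes the choice and is no finding. The choice was made with all 4 groups in view, so no p is given for a member in any comparison. They had also been proposed as silent in resting cells, and the data went against this for 5 of the 6. On all 3 NS arrays the probes of Ambp, Chst1, Agmo, Dntt and Cldn11 were well above background by the scanner's flag, and Cldn11 lay above the 75th percentile of its array. Prima1 alone was not well above background on any NS array. The genes are therefore called the 6 salt-raised genes here.

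The 4 groups had 3 arrays each. NS was read as cells without added NaCl, HS as cells with 40 mM added NaCl, NS+LPS as cells given 10 ng/ml lipopolysaccharide (LPS, a bacterial membrane component that macrophages sense), and HS+LPS as cells given both, all for 24 hours. The labels do not spell out NS and HS, and do not say whether replicates were separate cultures, so the spread behind the p-values is that among these samples and may be technical. All groups share the same cell line, and 9 of 10 macrophage marker genes (all but Mertk) were well above background on every array. Slide and scan day set the HS+LPS arrays apart: they had a separate slide to themselves, scanned on another day than the other 9 arrays (NS+LPS replicate 3 also had a separate slide), and their 75th percentile of signal was 411 to 438 against 613 to 783 in the other 9 arrays. A difference that belongs to HS+LPS and one that belongs to that slide cannot be told apart. Correlations between replicate arrays were 0.996 to 0.999.

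The 6 genes come from unrelated families. Ambp encodes a secreted precursor, made mainly by the liver, that is cleaved into alpha-1-microglobulin, a haem-binding antioxidant, and bikunin, a protease inhibitor that is carried on hyaluronan-binding proteins. Chst1, Agmo and Dntt encode enzymes: a Golgi sulfotransferase that sulfates galactose in keratan sulfate, the tetrahydrobiopterin-dependent monooxygenase that cleaves ether lipids, and the terminal transferase that adds untemplated nucleotides while lymphocyte precursors join antigen receptor genes. Cldn11 and Prima1 encode membrane proteins: a claudin of myelin and of the blood-testis barrier, and the anchor that holds acetylcholinesterase at the cell surface in brain. Cells in salty medium are known to respond through the transcription factor NFAT5, which binds tonicity elements (TonE) and raises transporters and enzymes for osmolytes, among them Slc6a12, Slc5a3 and Akr1b3.

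The 6 genes were chosen for their rise with salt, so moving together with salt describes the choice. The 250 bases before each start site were compared, from the RefSeq promoter table on GRCm38.p6, in which all 6 genes matched. The following 3 promoters are shown because they alone held GGAAA, the core of sites bound by NFAT factors, in capitals here.
Ambp promoter, chr4:63154173-63154422, minus strand: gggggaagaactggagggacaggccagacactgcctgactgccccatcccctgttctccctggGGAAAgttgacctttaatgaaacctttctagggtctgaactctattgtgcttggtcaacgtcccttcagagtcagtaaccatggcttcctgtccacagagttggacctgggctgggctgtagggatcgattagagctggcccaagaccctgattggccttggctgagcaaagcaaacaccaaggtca
Agmo promoter, chr12:37241389-37241638, plus strand: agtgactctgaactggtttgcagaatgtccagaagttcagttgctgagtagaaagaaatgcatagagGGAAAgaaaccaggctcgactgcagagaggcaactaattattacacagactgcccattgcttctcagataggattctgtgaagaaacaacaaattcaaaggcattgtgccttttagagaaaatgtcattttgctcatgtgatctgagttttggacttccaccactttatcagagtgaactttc
Dntt promoter, chr19:41029025-41029274, plus strand: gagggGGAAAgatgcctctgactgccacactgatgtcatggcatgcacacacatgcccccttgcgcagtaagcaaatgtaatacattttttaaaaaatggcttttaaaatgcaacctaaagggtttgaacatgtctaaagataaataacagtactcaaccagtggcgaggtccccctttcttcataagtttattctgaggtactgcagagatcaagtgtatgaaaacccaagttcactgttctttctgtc
GGAAA lay at positions -187 to -183 from the start in Ambp, -183 to -179 in Agmo and -245 to -241 in Dntt, each time on the strand of the gene. It is a common word: 55.6% of the 27025 promoters in the table hold it in a window of the same length, on either strand. Its longer form TGGAAA was in 0 of 6 windows and 18.7% of all promoters. The full TonE consensus was in 0 of 6 and 4.33% of all, the NF-kB consensus in 0 of 6 and 7.01%, the AP-1 motif TGANTCA in 0 of 6 and 6.87%, and GAGGAA, a core of ETS factor sites such as that of the macrophage factor PU.1, in 0 of 6 and 23.1%. GGAAA is contained in TGGAAA, so those counts overlap. A match or its absence describes these letters in this window only.

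The promoters were of different base composition. The ratio of observed to expected CpG was 0.108 for Ambp, 0.0601 for Chst1, 0.0971 for Agmo and 0.185 for Dntt, all below the median of 0.378 over all promoters. Cldn11 and Prima1 lay above it, at 0.758 and 0.866, and their windows were also rich in G and C, at 63.6% and 73.2% against a median of 52%. The Chst1 and Prima1 windows are shown as the lowest and the highest of the 6 in this ratio. No motif letters are in capitals in them, since GGAAA was absent from both.
Chst1 promoter, chr2:92600867-92601116, plus strand: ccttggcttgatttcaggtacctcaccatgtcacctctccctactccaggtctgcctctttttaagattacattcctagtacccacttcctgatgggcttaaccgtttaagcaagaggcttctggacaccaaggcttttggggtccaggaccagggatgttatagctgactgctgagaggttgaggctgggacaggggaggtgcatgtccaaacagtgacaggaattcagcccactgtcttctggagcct
Prima1 promoter, chr12:103242147-103242396, minus strand: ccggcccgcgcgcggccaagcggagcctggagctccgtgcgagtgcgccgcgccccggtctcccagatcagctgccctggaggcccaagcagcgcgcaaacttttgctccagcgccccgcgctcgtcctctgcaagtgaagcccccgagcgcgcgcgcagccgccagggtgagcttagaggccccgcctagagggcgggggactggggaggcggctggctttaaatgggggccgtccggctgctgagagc

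Each gene was read by a single 60-base probe, placed on mm9 by the scanner files. The probes lie at chr4:62804386-62804711 for Ambp, chr2:92455254-92455313 for Chst1, chr12:38308342-38308401 for Agmo, chr19:41133936-41133995 for Dntt, chr3:31062922-31062981 for Cldn11 and chr12:104435118-104435177 for Prima1. Exon and UTR positions on mm9 were not used here. Ambp is on the minus strand, and its probe covers a stretch of 326 bases, so its 60 bases are not contiguous in the genome. It is shown because it alone of the 6 probes is split in this way.
Ambp probe: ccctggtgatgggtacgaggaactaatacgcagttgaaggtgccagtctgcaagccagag

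Signals are given as the processed signal divided by the array's 75th percentile over non-control spots, called the scaled signal. Differences are on the log2 scale of that signal, with the standard error (SE) of a limma fit to all 12 arrays, and genes were called at a Benjamini-Hochberg adjusted p under 0.05. Where a gene is given as at least so many fold higher, its p comes from the measured signals, including those below background. Probes differ in brightness, so levels are compared between arrays for 1 gene and never between genes. Summed signals of marker genes are also compared between arrays only, and the brightest probes weigh most in them.

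All 6 genes were also higher with salt in the presence of LPS (HS+LPS against NS+LPS). These arrays are not part of HS against NS, but were in view when the genes were chosen. The HS+LPS arrays have their own slide, so salt and slide cannot be told apart in this comparison. The log2 difference was 3.14 to 3.94 for the 5 genes above background in both groups, and Prima1 was at least 4.77-fold higher. For each gene every HS+LPS array lay above every NS+LPS array. Over all 13846 genes, 26.2% were called higher and 31.4% lower in this comparison, and 29.2% had all HS+LPS arrays above all NS+LPS arrays. The median difference over all genes was -0.04, and 392 genes were called with a rise of at least 2-fold. Ordered by measured difference over all genes, Chst1 took place 13, Agmo 14, Ambp 26, Cldn11 29 and Dntt 31; the order counts genes below background in NS+LPS at their measured signal. Prima1 has only a bound and is given no place.

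**Figure D1:**
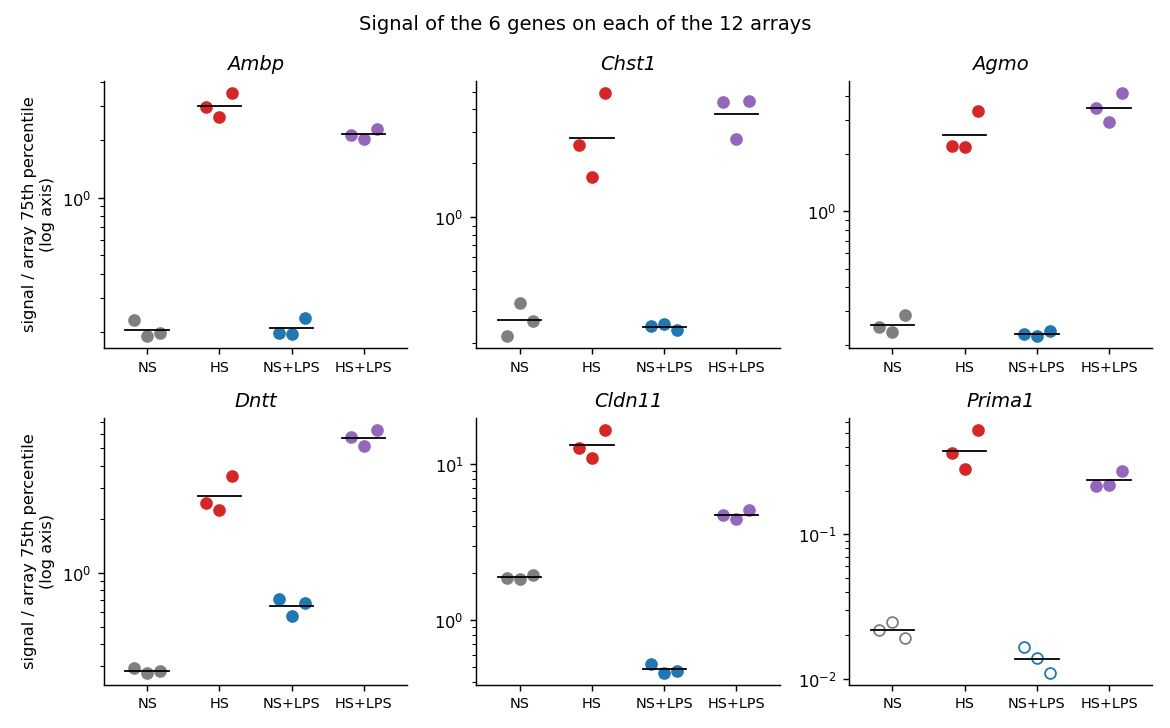
Scaled signal (signal over the array's 75th percentile, log axis) of the 6 genes on the 12 arrays, 3 per group, with replicates 1 to 3 from left to right in each group. Filled points were well above background, open points were not, and the line is the geometric mean; every array with added NaCl lies above every array without it for each gene, and only Prima1 has open points.

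The secreted protein gene Ambp had scaled signals of 0.231, 0.190 and 0.197 on the 3 NS arrays and 2.95, 2.64 and 3.50 on the HS arrays. With LPS its signals were 0.197, 0.195 and 0.237 without salt and 2.12, 2.03 and 2.29 with it. The arrays without added salt thus overlapped whether or not LPS was given, while all HS arrays were above all HS+LPS arrays. Of all genes, 74.9% had no overlap between HS and HS+LPS, in either direction. The salt difference in the presence of LPS was 3.36 on the log2 scale (SE 0.12, n = 3 arrays each), or 10.3-fold. Without LPS it was 3.87 (SE 0.12), or 14.6-fold.

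Ambp is best known from hepatocytes. Of 10 hepatocyte markers Apoa2 and Trf were well above background on all 12 arrays and Serpina1a on all arrays but those of HS+LPS, Cyp2e1 was so on 0 to 3 arrays and Fga on 0 to 2 arrays of a group, and Alb, Apoa1, Ttr, Fgb and Ahsg were not well above background on any of the 12 arrays. The summed scaled signal of the list was 4.22 to 4.43 in NS, 3.69 to 3.94 in HS, 1.56 to 2.11 in NS+LPS and 1.79 to 2.01 in HS+LPS. Of the 4 markers that passed the filter, 1 was called higher and 1 lower in HS+LPS against NS+LPS, beside 26.2% and 31.4% of all genes. The part of these cells' genes in the Ambp values was not tested.

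Of 20 other genes of the inter-alpha-inhibitor and hyaluronan pathway, 6 were measured (passed the filter on dim probes). Of these, 2 were called higher and 2 lower with salt in the presence of LPS, beside 26.2% and 31.4% of all genes. Their median was 0.0048 on the log2 scale against -0.04 over all genes. Hyal1, which degrades hyaluronan in lysosomes, rose by 0.80 (SE 0.08, limma adjusted p 3.04e-05), and Cd44, the cell surface receptor for hyaluronan, fell by 0.62 (SE 0.08, limma adjusted p 8.16e-05). Without LPS limma called 0 of the 6 higher (1 at an unadjusted p under 0.05) and 2 lower, where 18.2% of all genes were called higher and 18.8% lower. The 2 were Cd44, at -0.67 (SE 0.08, limma adjusted p 0.000103), and Hyal1, at -0.59 (SE 0.08, limma adjusted p 0.000443). The salt difference of Hyal1 thus changed sign with LPS.

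Chst1, the sulfotransferase, had scaled signals of 0.218, 0.335 and 0.264 in NS and 2.54, 1.69 and 4.92 in HS. With LPS its signals were 0.247, 0.255 and 0.235 without salt and 4.40, 2.73 and 4.44 with it. Among the 6 its arrays spread most where salt was added: the coefficient of variation was 54.9% in HS and 25.3% in HS+LPS. It was 21.5% in NS and 4.20% in NS+LPS. In HS replicate 3 was far above replicate 2. The salt difference in the presence of LPS was 3.94 (SE 0.34), or 15.3-fold. Without LPS the difference was 3.37 (SE 0.34), or 10.3-fold, and 2.95 without HS replicate 3.

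Of 35 other sulfotransferases and genes for the sulfate donor, 34 were on the array and 15 measured. In the presence of LPS 5 of the 15 were called higher with salt and 3 lower, beside 26.2% and 31.4% of all genes. The median was -0.03. Gal3st2, which sulfates galactose at another position, was not well above background on any NS+LPS array and was at least 2.80-fold higher in HS+LPS (limma adjusted p 0.00685). Chst15, a chondroitin sulfotransferase, was well above background on 2 of 3 NS+LPS arrays and 0 of 3 HS+LPS arrays, and was at least 1.82-fold higher in NS+LPS (limma adjusted p 0.00838). Without LPS 1 was called higher and 4 lower, beside 18.2% and 18.8% of all genes.

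Agmo, the ether lipid monooxygenase, had scaled signals of 0.248, 0.233 and 0.285 in NS and 2.18, 2.16 and 3.36 in HS. With LPS they were 0.227, 0.222 and 0.236 without salt and 3.45, 2.93 and 4.15 with it. The NS and NS+LPS arrays overlapped, and so did the HS and HS+LPS arrays, since HS replicate 3 exceeded HS+LPS replicate 2. The salt difference in the presence of LPS was 3.93 (SE 0.17), or 15.2-fold. It was 3.29 with normexp background correction, which subtracts background in another way. Without LPS the difference was 3.31 (SE 0.17), or 9.89-fold.

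Agmo needs tetrahydrobiopterin, the cofactor it shares with the nitric oxide synthases. Of 29 genes for tetrahydrobiopterin and ether lipids 24 were measured, with a median of -0.09 with salt in the presence of LPS. There 6 were called higher and 8 lower, beside 26.2% and 31.4% of all genes. Nos2, the inducible nitric oxide synthase, rose by 2.64 (SE 0.13, limma adjusted p 2.7e-07), and differed by 0.16 (SE 0.13, limma adjusted p 0.367) without LPS. Ptafr, the receptor for the ether lipid platelet-activating factor, fell by 0.71 (SE 0.08, limma adjusted p 4.43e-05). Gch1, the first enzyme of tetrahydrobiopterin synthesis, fell by 0.59 (SE 0.08, limma adjusted p 0.00014). Without LPS 2 of the 24 were called higher and 8 lower, beside 18.2% and 18.8% of all genes.

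Dntt, the terminal transferase, had scaled signals of 0.294, 0.275 and 0.280 in NS and 2.48, 2.26 and 3.49 in HS. With LPS they were 0.712, 0.569 and 0.680 without salt and 5.83, 5.13 and 6.36 with it. No pair of groups overlapped: the order was NS, NS+LPS, HS and HS+LPS. Such separation by LPS was common: 69.6% of all genes had it between NS and NS+LPS, and 74.9% between HS and HS+LPS. The salt difference in the presence of LPS was 3.14 (SE 0.15), or 8.83-fold. Without LPS the difference was 3.25 (SE 0.15), or 9.52-fold.

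Dntt marks lymphocyte precursors. Of other genes known from lymphoid cells, Rag1, Rag2, Igll1, Cd3g and Pax5 were well above background on 0 of the 12 arrays. Cd3e and Lck were so on all 12, Vpreb1 on 2 or 3 arrays of each group and Cd79a on 1 to 3. The summed scaled signal of the 10 lymphoid precursor markers was 4.62 to 5.01 in NS and 4.76 to 5.10 in HS, and 12.03 to 13.5 in NS+LPS and 13.6 to 14.1 in HS+LPS. The sum was thus higher with LPS, as Dntt was, and its part in the LPS difference of Dntt was not tested. Of 18 genes of the polymerase X family and DNA end joining, 16 were measured. With salt in the presence of LPS 5 were called higher and 6 lower, beside 26.2% and 31.4% of all genes. The median was -0.12. Dclre1c, the nuclease Artemis, rose by 0.31 (SE 0.05, limma adjusted p 0.00059). Nbn, part of the complex that senses DNA breaks, fell by 0.78 (SE 0.07, limma adjusted p 6.49e-06).

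Cldn11, the claudin, had scaled signals of 1.85, 1.82 and 1.95 in NS and 12.7, 10.97 and 16.5 in HS. With LPS they were 0.524, 0.461 and 0.476 without salt and 4.68, 4.44 and 5.05 with it. No pair of groups overlapped here either, but the order was another: NS+LPS, NS, HS+LPS and HS. The shares of all genes separated by LPS were again 69.6% without and 74.9% with added salt. The salt difference in the presence of LPS was 3.28 (SE 0.12), or 9.70-fold. Without LPS it was 2.82 (SE 0.12), or 7.04-fold.

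Some markers of oligodendrocytes, where Cldn11 forms the junctions of myelin, were detected in these cells. Of 8 markers 6 were well above background on all arrays of every group, while Sox10, which defines the lineage, was so on 0 arrays of NS, NS+LPS and HS+LPS and 1 of HS. Their summed scaled signal was 23.3 to 24.1 in NS and 32.1 to 35.6 in HS, and 19.1 to 20.6 in NS+LPS and 29.5 to 30.7 in HS+LPS. The sum, in which bright probes weigh most, moved with salt in the same direction as Cldn11, and its part in the result was not tested. Mbp, myelin basic protein, differed by 0.63 (SE 0.05) with salt without LPS and 0.91 (SE 0.05) with LPS, with limma adjusted p-values of 1.24e-05 and 5.16e-07. With salt in the presence of LPS 1 of the 6 measured markers was called higher and 3 lower, beside 26.2% and 31.4% of all genes. The median was -0.45. Of the 6 Sertoli cell markers 1, Rhox5, was well above background on all arrays, and the 5 epithelial markers were so on none.

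Among 33 other claudins and tight junction genes, 16 were measured. With salt in the presence of LPS 2 were called higher and 6 lower, beside 26.2% and 31.4% of all genes. The median was -0.12. The largest rise in the list was that of F11r, the junctional adhesion molecule A, at 0.76 (SE 0.05, limma adjusted p 2.03e-06). Cldn15, a claudin that forms cation channels, was well above background on 2 of 3 NS+LPS arrays and 0 of 3 HS+LPS arrays, and was at least 1.34-fold higher in NS+LPS (limma adjusted p 0.000499). Without LPS 2 were called higher and 4 lower, beside 18.2% and 18.8% of all genes.

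Prima1, the acetylcholinesterase anchor, had scaled signals of 0.0216, 0.0248 and 0.0192 in NS, none well above background, and 0.367, 0.282 and 0.529 in HS, all well above it. With LPS they were 0.0165, 0.0140 and 0.0110 without salt, again none well above background, and 0.218, 0.219 and 0.277 with it. A gene below background in a group has only a bound there, taken as the higher of its own signal and the lowest signal among probes well above background on each array. On that basis Prima1 was at least 4.77-fold higher in HS+LPS than in NS+LPS and at least 10.6-fold higher in HS than in NS, or 2.26 and 3.40 on the log2 scale. Normexp background correction with an offset of 50 gave smaller log2 differences, 1.46 with LPS and 1.81 without, so the size of its rise depends on the treatment of dim signals.

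Of 28 genes of acetylcholine handling 9 were measured, and limma called 0 in either direction with salt alone (1 higher and 0 lower at an unadjusted p under 0.05). The shares of all genes called there were 18.2% higher and 18.8% lower. In the presence of LPS 1 was called higher and 3 lower, beside 26.2% and 31.4% of all genes. Chrnb1, a subunit of the muscle acetylcholine receptor, was the 1 called higher. It was well above background on 0 of 3 NS+LPS and 3 of 3 HS+LPS arrays, and at least 1.72-fold higher in HS+LPS. It passed the filter only through HS+LPS, so no p is given for it. Slc18a3, the vesicular acetylcholine transporter, was well above background on 3 of 3 NS+LPS and 0 of 3 HS+LPS arrays, and was at least 2.67-fold higher in NS+LPS (limma adjusted p 7.65e-05). The median of the 9 was -0.29. Of 6 neuron markers only Snap25 was well above background, and the other 5 were so on 0 of the 12 arrays.

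Prima1 belonged to a small class by its detection. Of the 13846 genes, 153 were well above background on 0 of the 3 NS arrays, 15 of those were so on all HS arrays, and 4 of these were also on no NS+LPS array and on all HS+LPS arrays. The filter kept a gene below background in NS only if another group had it well above background on all 3 arrays. The 153 therefore leave out genes dim in every group. These 4 were Prima1, Ranbp3l, Accsl and H2bc23. They were picked for detection with added salt only, so a rise with salt in both comparisons describes the choice and is no finding. Without LPS they were higher with salt by at least 10.6-fold for Prima1, 4.88-fold for Ranbp3l, 3.53-fold for Accsl and 2.14-fold for H2bc23. With LPS the bounds were 4.77-fold, 5.25-fold, 7.23-fold and 2.85-fold in the same order.

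In the comparison that chose them, Ambp, Chst1, Agmo, Dntt and Cldn11 took places 4, 8, 9, 10 and 11 by measured difference among all genes. Rab15, a membrane traffic GTPase, held place 1 at 6.18. Cldn11 had 2.82, and Slc6a12, outside the 6 at place 13, had 2.74. For this comparison 25.8% of all genes had every HS array above every NS array, as all 6 members had.

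**Figure D2:**
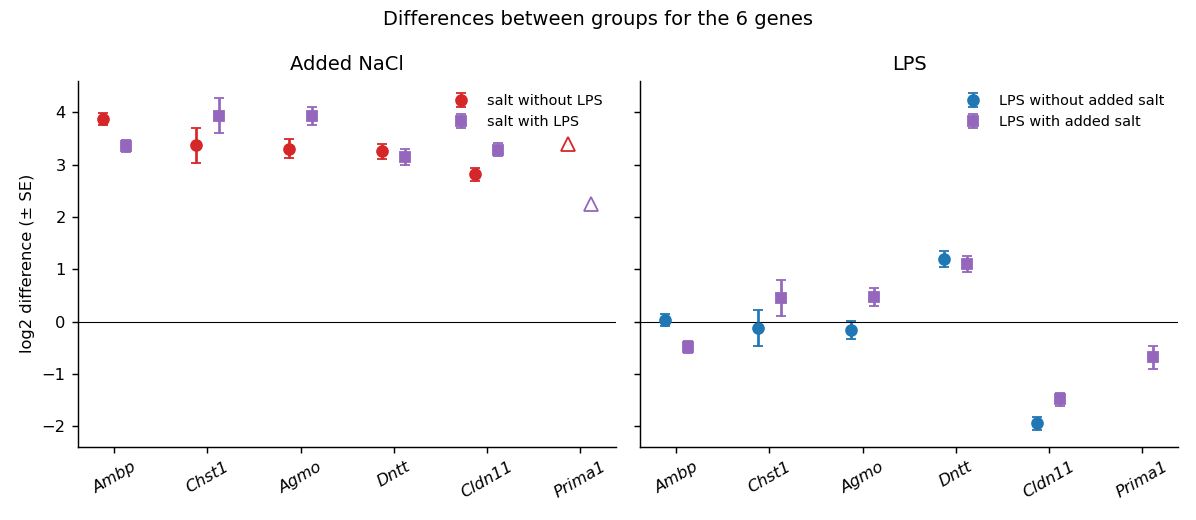
Log2 differences of the 6 genes (points, ± SE of the limma fit) for added NaCl without and with LPS, left, and for LPS without and with added NaCl, right. Open triangles are the lower bounds for Prima1, which was below background without salt and has no point for LPS alone; the other salt differences lie between 2.82 and 3.94, and the LPS differences run from -1.95 for Cldn11 to 1.20 for Dntt.

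With LPS the 6 genes went in different directions. These differences share arrays with the comparison that chose the genes and are given without a test. Without added salt, Dntt was 2.30-fold higher with LPS (1.20, SE 0.15) and Cldn11 was 3.85-fold lower (-1.95, SE 0.12), and for these 2 genes the NS and NS+LPS arrays did not overlap. Ambp, Chst1 and Agmo differed by 0.02 (SE 0.12), -0.13 (SE 0.34) and -0.15 (SE 0.17), with overlapping arrays. Prima1 was below background in both groups and has no fold. Over all genes 69.6% had non-overlapping NS and NS+LPS arrays.

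With added salt, the LPS differences were -0.49 for Ambp (SE 0.12), 0.44 for Chst1 (SE 0.34), 0.47 for Agmo (SE 0.17), 1.09 for Dntt (SE 0.15), -1.48 for Cldn11 (SE 0.12) and -0.68 for Prima1 (SE 0.22). The HS and HS+LPS arrays overlapped for Chst1 and Agmo and did not for the other 4 genes, against 74.9% of all genes without overlap. This comparison crosses the slides, so LPS and slide cannot be told apart in it.

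Salt and LPS were close to additive on the log2 scale for some genes and less so for others. The salt difference with LPS minus that without LPS was -0.11 for Dntt (SE 0.21), 0.46 for Cldn11 (SE 0.18), 0.57 for Chst1 (SE 0.48), 0.62 for Agmo (SE 0.25) and -0.51 for Ambp (SE 0.17). For Prima1 it cannot be given, since neither group without salt was above background. In scaled signal, adding the separate log2 differences of salt and LPS would put Dntt at 6.20 in HS+LPS, and its geometric mean there was 5.75. For Agmo the sum would give 2.26 and the mean was 3.48, a ratio of 1.54, and for Ambp the sum would give 3.06 and the mean was 2.14.

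**Figure D3:**
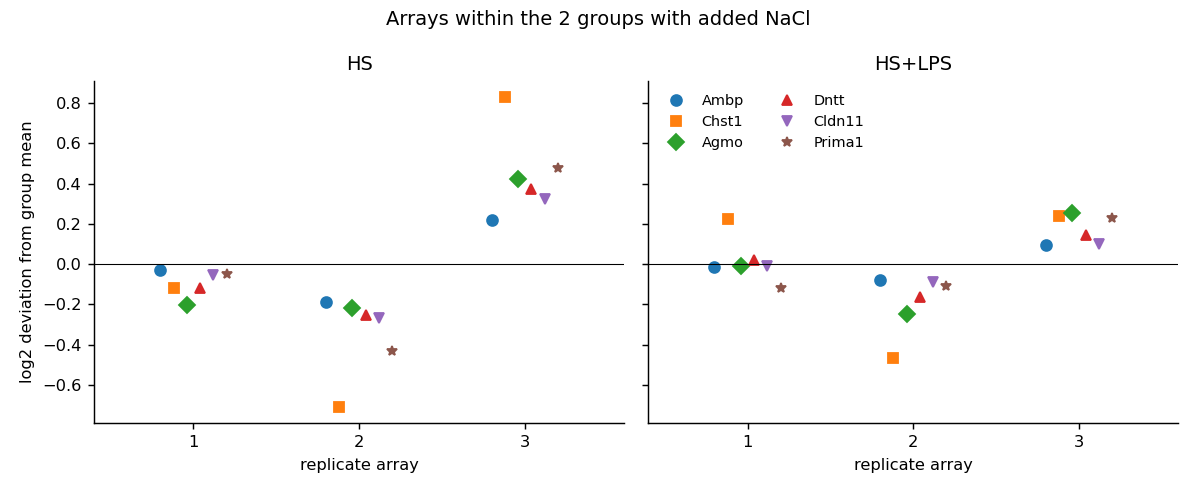
Log2 deviation of each of the 6 genes from its group mean on the 3 HS arrays, left, and the 3 HS+LPS arrays, right. In HS all 6 genes are highest on replicate 3 and lowest on replicate 2; in HS+LPS all 6 are highest on replicate 3, and 5 are lowest on replicate 2.

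Within the groups with added salt the 6 genes deviated together. On HS replicate 3 they were above their group mean by 0.22 to 0.83 on the log2 scale, and on HS replicate 2 below it, at -0.71 to -0.19. HS+LPS replicate 3 was the highest for all 6, by 0.09 to 0.26, and HS+LPS replicate 2 the lowest for 5 of 6. Salt-raised genes over the whole array deviated in the same direction, in sets that include the 6 genes. Of the 392 genes called with a rise of at least 2-fold in the presence of LPS, 64.8% were highest on HS replicate 3, against 37.3% of all genes. Of the 134 such genes without LPS, 64.9% were highest on HS+LPS replicate 3, against 27.3% of all genes. Without HS replicate 3, the salt differences of Ambp, Chst1, Agmo, Dntt and Cldn11 without LPS lay between 2.65 (Cldn11) and 3.76 (Ambp).

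The index genes of the tonicity response rose as well. With salt in the presence of LPS, Slc6a12, the betaine transporter, rose by 3.32 (SE 0.14, limma adjusted p 8.88e-08), Slc5a3, the inositol transporter, by 2.34 (SE 0.12, limma adjusted p 3.15e-07), Akr1b3, aldose reductase, by 2.33 (SE 0.14, limma adjusted p 6.76e-07) and Nfat5 by 0.90 (SE 0.06, limma adjusted p 1.6e-06). Of 14 genes in the tonicity list 12 were measured, and 10 were called higher and 1, Nup62, lower, beside 26.2% and 31.4% of all genes. Without LPS limma called 8 higher and 0 lower, the same numbers as at an unadjusted p under 0.05. The shares of all genes there were 18.2% and 18.8%. This list was chosen with earlier results of these data known, so its counts are no test.

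Over the 12 arrays some genes followed single members closely, by Pearson's r across arrays among 921 genes whose group means span at least 2 log2 units. The 12 arrays fall into 4 groups, so r mostly repeats the order of the group means, and no p is given. Signals below background, as those of Prima1 and Ranbp3l without salt, enter r as measured. Shb, a signalling adaptor, was the most like Ambp (r = 0.996), and Slc5a3 came next (r = 0.989). Ranbp3l was the most like Chst1 (r = 0.990) and Synpo, an actin-binding protein, the most like Agmo (r = 0.994). For Dntt it was Defa1, an alpha-defensin (r = 0.990), for Cldn11 Ndrg4 (r = 0.998) and for Prima1 the unnamed transcript 9130008F23Rik (r = 0.994). Slc5a3 was again next for Prima1 (r = 0.992). Among the 6 genes themselves r ran from 0.654 between Dntt and Cldn11, which LPS moved apart, to 0.990 between Chst1 and Agmo.

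**Figure D4:**
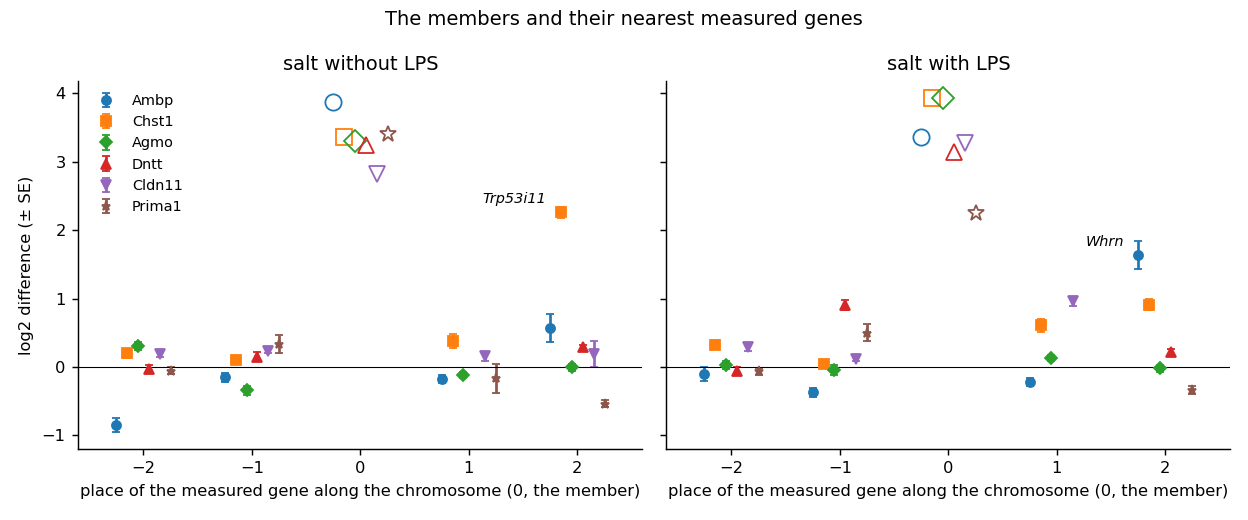
Log2 salt differences (± SE) of the 6 genes (large open symbols at place 0, a lower bound for Prima1) and of their 2 nearest measured genes on each side, without LPS, left, and with LPS, right. Neighbours below background on all arrays of a group compared are left out (1 left, 3 right), and those plotted with a rise of at least 2-fold are named.

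The 2 nearest measured genes on each side of the 6 on their chromosomes gave 24 neighbours. Without LPS 8 of the 24 were called higher with salt and 4 lower, beside 18.2% and 18.8% of all genes, and their median difference was 0.15. With LPS 12 of the 24 were called higher and 4 lower, beside 26.2% and 31.4% of all genes, and the median was 0.085. Opalin, a myelin protein gene next to Dntt, was well above background only in HS+LPS, on all 3 arrays. It was at least 2.15-fold higher there than in NS+LPS. It is among the 12 called higher with LPS, but passed the filter only through HS+LPS, so no p is given for it. Without LPS it was among the 8 called higher, but was below background on all NS and HS arrays and has no fold. Trp53i11, near Chst1, rose by 2.26 (SE 0.08) without LPS and 0.91 (SE 0.08) with LPS, at limma adjusted p-values of 6.3e-07 and 1.18e-05. Whrn, near Ambp, differed by 0.57 (SE 0.20, limma adjusted p 0.051) without LPS and rose by 1.64 (SE 0.20, limma adjusted p 9.05e-05) with LPS. The neighbours of Agmo stayed between -0.34 and 0.30 in both comparisons. Whether a salt difference itself differed with LPS was tested over all genes. The signed difference was more positive with LPS for 17.4% of them and more negative for 18.8%. Trp53i11 was among the latter and Whrn among the former.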

How the data were processed

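Total RNA of 12 RAW264.7 samples was measured on 1-colour Agilent arrays (design 028005). The scanner values are, per the file headers, linear intensity, background subtracted and detrended by Agilent Feature Extraction 10.7.3.1, and the flags for outliers, saturation and signal well above background are 0 or 1 per spot. The deposited value table is linear intensity too; its columns have nearly equal quartiles, as after quantile normalization, a step not given in the sources used here. It served as an alternative. The deposited files hold no log2 values; all log2 values were computed from them.

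From the scanner files, each processed signal was divided by its array's 75th percentile over 59305 non-control spots and put on a log2 scale. Spots were averaged to 55681 probes, 10 probes with outlier flags were dropped and 0 spots were saturated. Of 33270 probes with a symbol, 18849 were flagged well above background throughout at least 1 group of 3 arrays; the brightest stood for each of 13846 genes. Limma 3.58.1 in R 4.3.3 was fitted to all 12 arrays (8 residual degrees of freedom), 2-sided, with Benjamini-Hochberg adjustment over all genes. The code was tested on simulated data. Figures used matplotlib and Python.

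The members and lists were chosen with earlier results of these data known. A planned count of members called in HS+LPS against NS+LPS is therefore not reported as a test. Named genes are the members, called genes of each list with the largest rise and fall in HS+LPS against NS+LPS, the most similar genes, neighbours and tonicity index genes. Opalin, Trp53i11 and Whrn were singled out after their values were seen. Alternatives were normexp (offset 50), quantile and cyclic loess normalization, the deposited table, other filters and probe rules, a variance trend, array weights, blocks for slide and replicate number, and leaving out arrays.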

Additional observations from a re-analysis of the deposited data

Results flagged for a closer look

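The 6 genes had 3 arrays per group, too few for a test of single outlying arrays. Among 32 other genes named in the results, 17 had a salt difference that itself differed between cells with and without LPS (limma interaction, Benjamini-Hochberg adjusted p under 0.05). Of all genes tested, 17.4% had a more positive and 18.8% a more negative signed difference with LPS. Many of the 32 were named for their salt difference with LPS, which enters the interaction, so the 17 describe the choice and are no test. The values below are the log2 salt difference with LPS minus that without. Positive values were 2.48 for Nos2, 1.44 for Accsl, 1.39 for Hyal1, 1.26 for H2bc23, 1.22 for Akr1b3, 1.07 for Whrn, 0.69 for Synpo, 0.64 for Ptafr, 0.59 for Slc6a12, 0.35 for F11r, 0.27 for Mbp and 0.21 for Dclre1c. Negative values were -1.93 for Cldn15, -1.66 for Slc18a3, -1.35 for Trp53i11, -0.67 for Nbn and -0.34 for Nup62. Of the 17 genes, 13 were well above background on at least 1 array of every group. Accsl and H2bc23 were so on no NS or NS+LPS array, and Cldn15 and Slc18a3 on no HS+LPS array, so for these 4 genes the values rest on signals that are only bounds. The slide of the HS+LPS arrays cannot be told apart from these differences.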

How the results depend on the processing

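The salt rise of the 6 genes kept its direction under all 25 alternatives, or 24 for Prima1, which has no value where only genes above background on all 12 arrays are tested. In HS+LPS against NS+LPS the lowest values came with normexp background correction. They were 2.84 for Ambp, 3.46 for Chst1, 3.29 for Agmo, 2.82 for Dntt and 2.90 for Cldn11. Without LPS normexp gave the lowest values for Ambp, Agmo and Dntt, at 3.38, 2.81 and 2.80. For Chst1 and Cldn11 the lowest, 2.95 and 2.65, came from leaving out HS replicate 3. Normexp also turned the sign of the LPS difference of Prima1 without added salt, to 0.037 from -0.67. The gene was below background in both groups there, and the cause was not tested. Leaving out 1 array at a time gave 3877 to 5110 calls without LPS and 7097 to 8041 with LPS, where 5129 and 7968 were called with all arrays. Cyclic loess normalization, and leaving out HS and HS+LPS replicates 3 together (3767 and 7070 calls), were chosen after seeing the data.

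With the replicate number as a block, 4702 genes were called without LPS and 7616 with LPS. Same-numbered NS and HS arrays deviated from their group means with correlations of 0.012 to 0.12, and different-numbered ones with -0.15 to 0.034. For NS+LPS and HS+LPS arrays the correlations were -0.080 to 0.0047 and -0.087 to 0.12. Any pairing by number was thus weak, and whether the numbers pair the samples was not tested. Dim signal limits Prima1, for which only a lower bound of the fold can be given.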
